A study of Bos taurus with 64 samples.

Results

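bta-miR-21-5p is the guide strand of the miR-21 hairpin, and it is 1 of the 1030 microRNA (miRNA) names counted in skeletal muscle of steers. It was picked from these data for its high values in Holstein-Friesian steers on grass, so its levels there are given as a description and carry no test. The study sequenced 64 muscle libraries from 59 steers, either Charolais, bred for beef, or Holstein-Friesian, bred for milk. The herd, 90 Charolais and 77 Holstein-Friesian, was followed for intake through 2 feeding phases of 70 days with 14 days of acclimatisation between them, zero-grazed grass first and a high-concentrate diet after it. Muscle was sampled as each phase closed, from animals of high or low residual feed intake (RFI, actual minus predicted intake, so that low-RFI steers are the more feed-efficient). This gave 8 groups of 8 libraries: high-RFI and low-RFI Charolais on grass, high-RFI and low-RFI Holstein-Friesian on grass, and the same 4 groups on concentrate. All animals of a phase ate its diet, so diet and phase order cannot be told apart, and 5 steers (4 Charolais and 1 Holstein-Friesian) gave a library in both phases.

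miR-21-5p acts in most cell types, where it lowers the mRNAs of growth and apoptosis brakes such as PDCD4 and SPRY1. In heart, kidney and dystrophic muscle it is known as a fibroblast miRNA that goes up with TGF-beta signalling and injury, and its gene is also switched on by STAT3, AP-1 and NF-kB. The other arm of the hairpin, miR-21-3p, is cut from the same precursor and is usually degraded, so it is counted far less often. In the RefSeq cattle annotation (assembly ARS-UCD2.0, which is not the build behind the counts, so no coordinates are given), MIR21 lies between VMP1, an autophagy gene, and TUBD1, a tubulin gene, with PTRH2 and RPS6KB1 as the next genes on either side. It overlaps none of these 4 neighbours there.

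Total counts ran from 4795936 to 12245101 per library with a median of 8143018. miR-10b, the most abundant miRNA, took 19.3% to 74.5% of a library, so levels were scaled with trimmed-mean (TMM) factors, which ran from 0.511 to 2.43. They are given in CPM, which are counts brought to a common library size with those factors. The muscle miRNAs miR-133a and miR-133b were abundant, with means of 74320 and 8983 CPM. Other muscle miRNAs were lower, with means of 824.6 CPM for miR-208b, 346 for miR-499, 247.1 for miR-1, 14.55 for miR-206 and 1.2 for miR-208a. The liver miRNA miR-122 had a count in only 13 libraries and was too rare to be tested.

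miR-21-5p averaged 1897 CPM over the 64 libraries. That placed it at rank 27 among the 318 miRNAs tested, between let-7a-5p at 2005 CPM and miR-125b at 1877 CPM. Its rank within a library ran from 10 to 32. As a share of all counts it ran from 0.0746% in a low-RFI Holstein-Friesian library on concentrate to 1.14% in replicate 5 of the low-RFI Holstein-Friesian steers on grass, where the 95% Wilson interval was 1.13 to 1.14% and covers counting error only.

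In high-RFI Charolais steers on grass miR-21-5p ran from 1197 to 2530 CPM with a median of 1321 and a mean of 1453 ± 444.6 (SD, n = 8). In low-RFI Charolais steers on grass it ran from 1259 to 4141 CPM with a median of 1404 and a mean of 1743 ± 976.9 (SD, n = 8). Both Charolais grass groups were compact apart from 1 library each, replicate 2 in either group, which had the highest value. In high-RFI Holstein-Friesian steers on grass it ran from 1510 to 2357 CPM with a median of 1964 and a mean of 1981 ± 266.5 (SD, n = 8). In low-RFI Holstein-Friesian steers on grass it ran from 1329 to 7342 CPM with a median of 2912 and a mean of 3609 ± 2455 (SD, n = 8). This group held the highest values of the study and, in other steers, values as low as those of the Charolais.

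On concentrate all 4 groups lay close together. miR-21-5p ran from 1433 to 1917 CPM in high-RFI Charolais steers (median 1794, mean 1695 ± 208.1, SD, n = 8) and from 1279 to 2095 CPM in low-RFI Charolais steers (median 1529, mean 1625 ± 295.9). In Holstein-Friesian steers on concentrate it ran from 1272 to 1748 CPM at high RFI (median 1502, mean 1527 ± 179.2) and from 1357 to 1797 CPM at low RFI (median 1491, mean 1542 ± 163.3, SD, n = 8). The ranges of these 4 groups overlapped throughout.

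By mean, the order from high to low was low-RFI Holstein-Friesian on grass, high-RFI Holstein-Friesian on grass, low-RFI Charolais on grass, high-RFI Charolais on concentrate, low-RFI Charolais on concentrate, low-RFI and then high-RFI Holstein-Friesian on concentrate, and high-RFI Charolais on grass. Every step between neighbours in that order was smaller than the larger of the pair's SDs. By median, both Holstein-Friesian grass groups again led, and low-RFI Charolais on grass moved down to the place above high-RFI Charolais on grass, because its mean rests on the library at 4141 CPM.

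**Figure D1:**
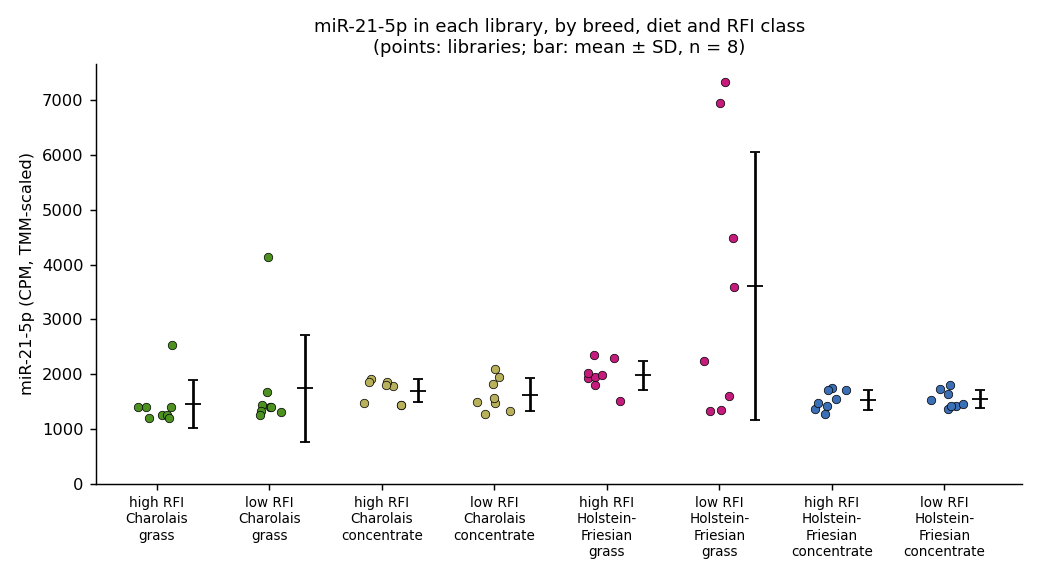
Level of miR-21-5p in each of the 64 libraries (vertical axis, TMM-scaled CPM from 0) by breed, RFI class and diet (horizontal axis), with the group mean ± SD beside the points (n = 8). The low-RFI Holstein-Friesian grass libraries spread from 1329 to 7342 CPM, while the 4 concentrate groups lie between 1272 and 2095 CPM.

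The low-RFI Holstein-Friesian steers on grass differed widely among themselves. Replicates 5 and 3 had 7342 and 6956 CPM, replicates 4 and 2 had 4484 and 3590 CPM, and replicate 7 had 2234 CPM. Replicates 6, 8 and 1 had 1602, 1336 and 1329 CPM. Thus 4 of the 8 lay above every high-RFI Holstein-Friesian grass library, and 2 of the 8 lay below all of them. The SD of log2 CPM in this group was 1.02, which made miR-21-5p the miRNA at rank 4 from the most variable of 172 there, where the median SD was 0.38. In high-RFI Holstein-Friesian steers on grass its SD was 0.20, rank 160 of 172, and in the 4 concentrate groups it was 0.15 to 0.26. The values of miR-21-5p in these steers chose it, so its rank in the low-RFI group is a description.

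On grass, miR-21-5p averaged 2795 ± 1885 CPM in Holstein-Friesian steers and 1598 ± 748.3 CPM in Charolais steers (SD, n = 16 each). In 14 of 16 Holstein-Friesian libraries it was above the Charolais median, although the ranges overlapped. The fitted log2 difference was 0.75 ± 0.16 (SE), or 1.68-fold, within the contrast that chose the miRNA. Among all 318 miRNAs tested there, 14.8% were called higher and 15.4% lower in Holstein-Friesian steers at an adjusted p of 0.05. The log2 difference between breeds on grass was 0.45 within high RFI and 1.05 within low RFI. The SE of 0.16 rests on a spread shared by all 8 groups. The SD of log2 CPM on grass was 0.77 in Holstein-Friesian and 0.47 in Charolais steers.

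Within the Holstein-Friesian breed the level was lower on concentrate, at 1535 ± 165.8 CPM against 2795 ± 1885 CPM on grass (SD, n = 16 each). All 16 concentrate libraries lay below the grass median, and 12 of 16 grass libraries lay above the highest concentrate library. Of those 12, the high-RFI group gave 7 of its 8 libraries and the low-RFI group 5 of its 8. The log2 difference was -0.80 ± 0.16 (SE), or 0.574-fold, and it was -0.38 within high RFI and -1.23 within low RFI. Of all miRNAs, 10.7% were called higher and 13.5% lower on concentrate in this breed. The diet difference in Holstein-Friesian minus that in Charolais steers was -0.86 ± 0.23 on the log2 scale, in a contrast where 2.2% of miRNAs were called higher and 1.26% lower. These comparisons share the Holstein-Friesian grass libraries, so they are not separate evidence.

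Between RFI classes of Holstein-Friesian steers on grass, miR-21-5p was 0.87 ± 0.23 log2 units (SE) higher at low RFI, or 1.82-fold, again as a description. This SE rests on a spread shared by all 8 groups, while the SD of log2 CPM was 1.02 at low RFI and 0.20 at high RFI. Mean log2 CPM was 11.51 at low RFI and 10.94 at high RFI. The fitted difference was 0.56 without low-RFI replicate 5 and 0.59 without replicate 3. By edgeR, 0% of miRNAs were called in this contrast, with 17 of 318 at an unadjusted p under 0.05, and DESeq2 and limma-voom also called 0.

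The comparisons without the Holstein-Friesian grass libraries could be tested, and miR-21-5p passed in none of these 5. Their edgeR SEs and p-values still share a spread with those libraries, while the permutation tests use only the libraries compared. The SD of log2 CPM was 0.15 to 0.26 in the concentrate groups, against 1.02 in low-RFI Holstein-Friesian steers on grass. On concentrate, Holstein-Friesian steers had 1535 ± 165.8 and Charolais steers 1660 ± 249.7 CPM (SD, n = 16 each). The log2 difference was -0.11 ± 0.16 (95% interval -0.43 to 0.20, edgeR adjusted p = 0.781), 5 of 16 Holstein-Friesian libraries were above the Charolais median, and 1.57% of miRNAs were called in either direction. In Charolais steers the difference between concentrate and grass was 0.06 ± 0.16 (95% interval -0.26 to 0.38, edgeR adjusted p = 0.820), in a contrast where 9.43% of miRNAs were called higher and 11.3% lower. Of the Charolais concentrate libraries, 14 of 16 were above the grass median of their breed, and the difference was 0.28 without low-RFI Charolais grass replicate 2, the library at 4141 CPM. A permutation test on log2 CPM (two-sided, 100000 resamples, 16 against 16 libraries) gave p = 0.124 for the breeds on concentrate and p = 0.345 for the diets in Charolais steers. The diet test shuffled libraries freely and so ignored that 4 Charolais steers gave a library on both diets.

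Between RFI classes, low minus high, the log2 difference of miR-21-5p was 0.26 ± 0.23 in Charolais steers on grass (edgeR adjusted p = 0.861) and -0.08 without low-RFI replicate 2. It was -0.06 ± 0.23 in Charolais steers on concentrate (edgeR adjusted p = 0.985) and 0.01 ± 0.23 in Holstein-Friesian steers on concentrate (edgeR adjusted p = 0.980). The low-RFI libraries above the high-RFI median numbered 5, 3 and 4 of 8 in these 3 comparisons. Exact two-sided permutation tests gave p = 0.499, 0.530 and 0.846, and adjusted over the 5 permutation tests the p-values ran from 0.620 to 0.846. Of all miRNAs, 0% were called in each of these 3 RFI contrasts by edgeR, DESeq2 and limma-voom alike, and at an unadjusted p under 0.05 edgeR counted 15, 10 and 34 of 318.

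Among the 5 steers with libraries from both phases, miR-21-5p went from 2530 CPM on grass to 1820 on concentrate, from 1317 to 1333, from 1199 to 1806 and from 1244 to 1782 in the 4 Charolais, and from 1929 to 1748 in the Holstein-Friesian. Charolais steers thus moved in both directions. The steer at 2530 CPM was classed as high RFI on grass and low RFI on concentrate.

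**Figure D2:**
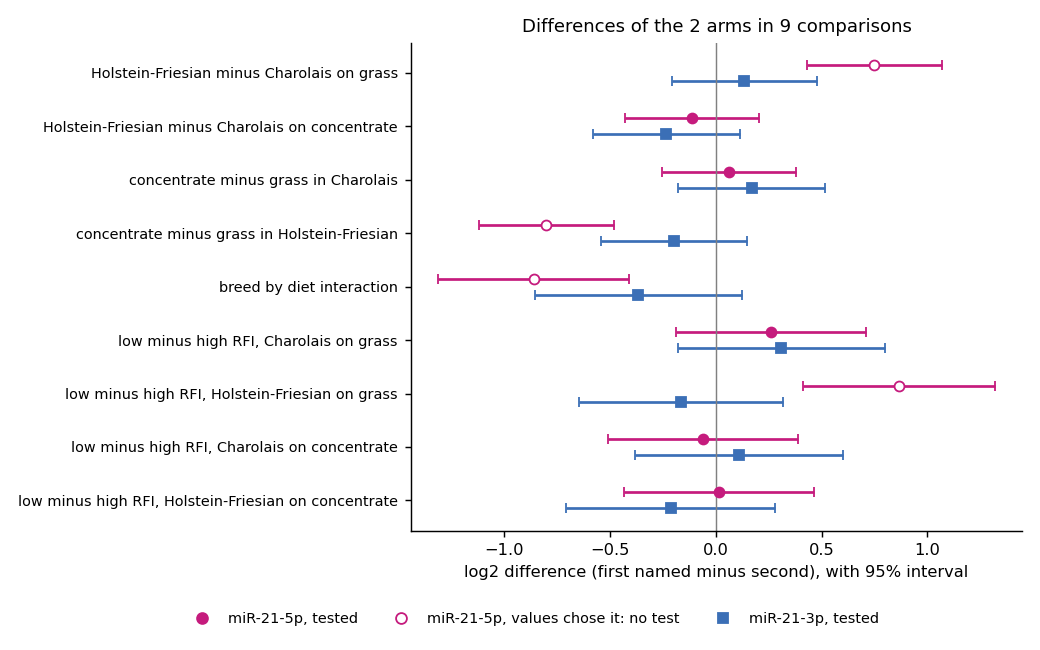
Log2 differences (horizontal axis, first named group minus second, with 95% intervals) of miR-21-5p (circles) and miR-21-3p (squares) in 9 comparisons (vertical axis). Open circles mark the 4 comparisons of miR-21-5p that contain the libraries it was chosen on, so their intervals are a description and no test against 0. The intervals of all filled symbols include 0. The intervals of each arm rest on a spread shared by all 8 groups.

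The other arm was measured by its own row of the table, which the choice did not use. miR-21-3p averaged 7.99 CPM, rank 181 of 318, from 22 to 677 counts a library, so it carries more counting error than miR-21-5p. Its median was 7.19 CPM in Charolais steers on grass (range 4.94 to 13.8), 7.11 CPM in Holstein-Friesian steers on grass (2.71 to 22.7), 7.69 CPM in Charolais steers on concentrate (5.10 to 13.2) and 7.44 CPM in Holstein-Friesian steers on concentrate (4.27 to 9.92). The 4 medians were close, and the Holstein-Friesian grass libraries had the widest range.

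miR-21-3p passed the test in none of the 9 comparisons. Between the breeds on grass its log2 difference was 0.13 ± 0.18 (95% interval -0.21 to 0.48, edgeR adjusted p = 0.632), and 8 of 16 Holstein-Friesian libraries were above the Charolais median. That difference was -0.06 without high-RFI Holstein-Friesian grass replicate 1, which had 22.7 CPM and also the highest TMM factor, 2.43. Between the diets in Holstein-Friesian steers it was -0.20 ± 0.18 (95% interval -0.54 to 0.15, edgeR adjusted p = 0.450), and 0.00 without that library. With total counts as the scale it was -0.66 and passed (edgeR adjusted p = 0.0432), on a scale where the median of all miRNAs was -0.29. The difference between breeds on concentrate was -0.23 ± 0.18 (edgeR adjusted p = 0.488) and that between diets in Charolais steers was 0.17 ± 0.18 (edgeR adjusted p = 0.537). Between RFI classes miR-21-3p differed by 0.31 ± 0.25 in Charolais on grass, -0.16 ± 0.25 in Holstein-Friesian on grass, 0.11 ± 0.25 in Charolais on concentrate and -0.21 ± 0.25 in Holstein-Friesian on concentrate, with edgeR adjusted p from 0.788 to 0.999.

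The ratio of the miR-21-5p count to the miR-21-3p count does not depend on how a library is scaled. It averaged 359.2 ± 166.3 in Holstein-Friesian steers on grass, 207.4 ± 55.7 in Charolais steers on grass, 204.7 ± 46.0 in Charolais steers on concentrate and 218.6 ± 47.6 in Holstein-Friesian steers on concentrate (SD, n = 16 each). The grass-fed Holstein-Friesian steers therefore had the highest mean ratio, and 15 of their 16 libraries were above the Charolais grass median, with replicate 1 of high RFI, at 84.9, as the lowest of all. On the log2 scale the difference in the ratio was 0.69 ± 0.16 (SE) for Holstein-Friesian minus Charolais steers on grass and -0.59 ± 0.16 for concentrate minus grass in Holstein-Friesian steers. It holds the miR-21-5p values that chose the miRNA, so these are descriptions. Over the 64 libraries the log2 CPM of the arms had a Pearson r of 0.44 and a Spearman rho of 0.49, and r was 0.41 without the 2 libraries farthest from the miR-21-5p median and 0.57 without the Holstein-Friesian grass libraries.

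**Figure D3:**
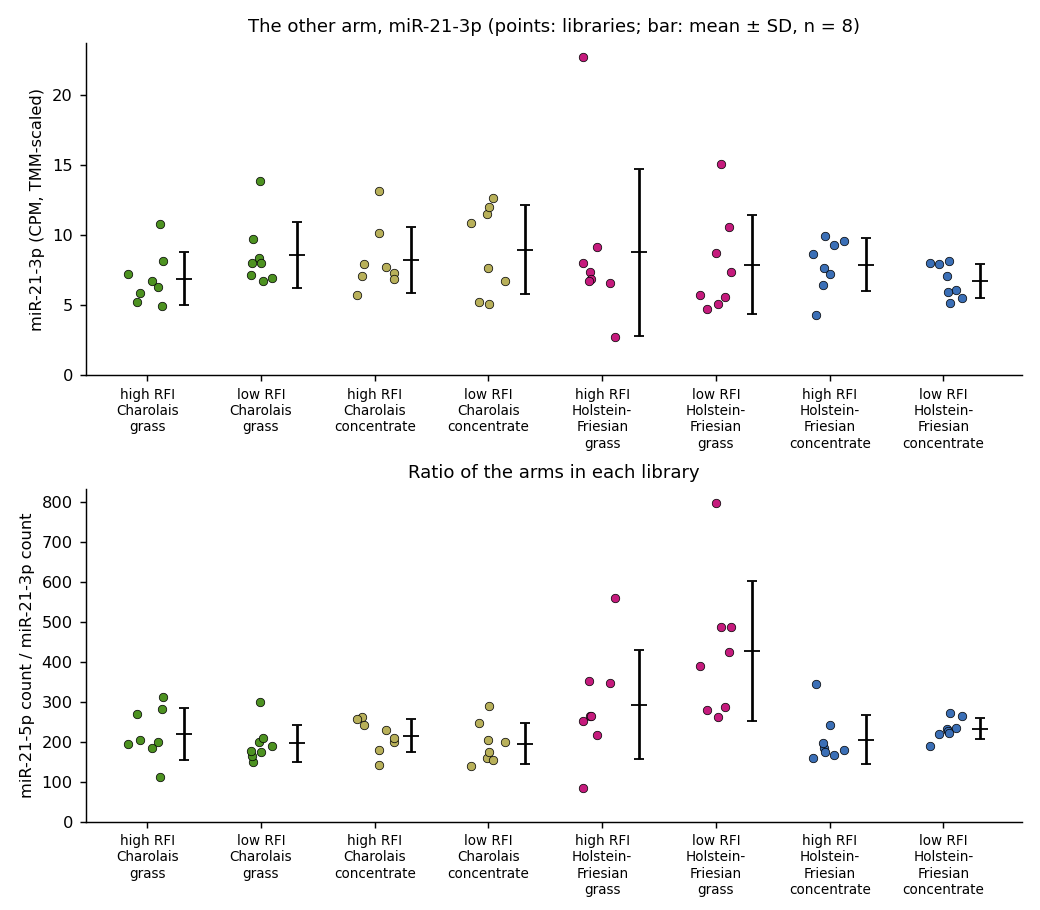
Level of miR-21-3p (upper panel, TMM-scaled CPM from 0) and ratio of miR-21-5p to miR-21-3p counts (lower panel, from 0) in each library by group, with mean ± SD (n = 8). On grass the median of miR-21-3p is 7.11 CPM in Holstein-Friesian and 7.19 CPM in Charolais steers, while the ratio averages 359.2 in Holstein-Friesian and 207.4 in Charolais steers on grass.

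miR-590, which shares the seed of miR-21-5p (bases 2 to 8, the stretch that pairs with targets), is not among the names analysed here. The miRNAs whose pattern was most like that of miR-21-5p were found by Pearson r of log2 CPM over the 64 libraries, among 171 others averaging 10 CPM or more. These correlations share each library's scaling and carry no p, and their median was 0.01. The 6 highest belonged to miR-152 (r = 0.51, rho = 0.54), which targets DNA methyltransferase 1, miR-23b-3p (0.48) with miR-10174-3p (0.47), miR-199c with miR-199a-3p (0.44 each), abundant in fibroblasts and other mesenchymal cells, and miR-380-3p (0.44) of the imprinted DLK1-DIO3 cluster. miR-10174-3p and miR-23b-3p had nearly the same counts, as did miR-199c and miR-199a-3p, so their split is uncertain and these 6 names stand for about 4 measurements. The lowest belonged to miR-885 (r = -0.60), miR-30c (-0.60), a miRNA that lowers connective tissue growth factor, and miR-365-3p (-0.55).

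Without the 16 Holstein-Friesian grass libraries r was 0.43 for miR-152, 0.24 for miR-23b-3p, 0.28 for miR-199a-3p, 0.28 for miR-380-3p, -0.20 for miR-885, -0.38 for miR-30c and -0.21 for miR-365-3p. With each group's mean subtracted, the highest r values were those of miR-221 (0.43), miR-204 (0.38), miR-23b-3p (0.38), miR-10174-3p (0.38) and miR-155 (0.37), and r was -0.51 for miR-885, -0.49 for miR-30c and -0.40 for miR-365-3p. With total counts as the scale, r was between 0.70 and 0.76 for the 6 highest, 0.10 for miR-30c, 0.03 for miR-365-3p and -0.22 for miR-885, and only 2 of the 6 were still among the 6 highest. The order of likeness therefore depends on the scale. miR-152 itself ran from 23.4 to 123.7 CPM (median 48.2) in Holstein-Friesian steers on grass and from 18.0 to 36.7 CPM (median 27.2) in Charolais steers on grass. miR-30c ran from 688.6 to 1606 CPM (median 1076) and from 939 to 2017 CPM (median 1529) in the same groups. Both miR-152 and miR-30c were picked by r over libraries that include these groups, so the levels are a description and not separate evidence.

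**Figure D4:**
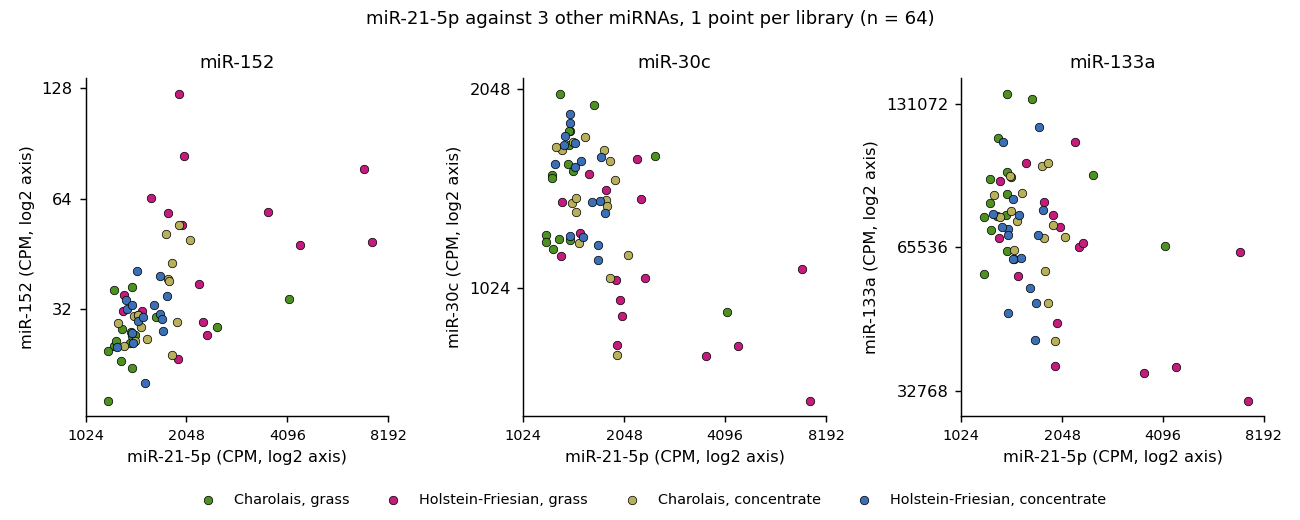
Level of miR-152, miR-30c and the muscle miRNA miR-133a (vertical axes, CPM on a log2 axis) against that of miR-21-5p (horizontal axes, CPM on a log2 axis), 1 point per library (n = 64), coloured by breed and diet. miR-152 had r = 0.51 and miR-30c r = -0.60 with miR-21-5p over all libraries.

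Lists of miRNAs tied to the known roles of miR-21 were followed in the same comparisons, where medians over all 318 miRNAs lay between -0.01 and 0.04. They were drawn up with earlier results of these data known. Of miRNAs raised in fibrosis, 7 of 9 were tested, and 4 of these 7 were called higher in Holstein-Friesian than in Charolais steers on grass against 14.8% of all miRNAs (median log2 difference 0.60). They were the fibroblast miRNAs miR-199a-3p (0.65 ± 0.17), miR-199a-5p (0.60 ± 0.19) and miR-214 (0.64 ± 0.21), and miR-155 (0.62 ± 0.17), an inflammatory miRNA of leukocytes and macrophages. miR-199a-3p and miR-199a-5p are the arms of miR-199a, so the members called are not all separate. The count called higher was 2 of 7 without high-RFI and low-RFI Holstein-Friesian grass replicates 2, which stood apart from their groups in miR-143. In Holstein-Friesian steers miR-199a-3p (-0.61 ± 0.17) and miR-214 (-0.62 ± 0.21) were lower on concentrate than on grass, 2 of 7 against 13.5% of all. That count was 1 of 7 without high-RFI Holstein-Friesian grass replicate 2 and 0 of 7 without both libraries apart in miR-143. Between the diets in Charolais steers, and between the breeds on concentrate, 0 of 7 were called by edgeR, DESeq2 and limma-voom, and 0 of 7 had an unadjusted edgeR p under 0.05.

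Of miRNAs that restrain fibrosis or matrix genes, 15 of 19 were tested, and 6 of 15 were called lower in Holstein-Friesian steers on grass against 15.4% of all (median -0.28). They were miR-29a (-0.33 ± 0.10) and miR-29c (-0.46 ± 0.11), which repress collagen mRNAs, miR-30c (-0.41 ± 0.11) and miR-30e-5p (-0.33 ± 0.12), miR-101 (-0.33 ± 0.09), and the muscle miRNA miR-133a (-0.43 ± 0.15). In the same breed miR-29b (0.59 ± 0.13), miR-29c (0.49 ± 0.11), miR-30c (0.42 ± 0.11) and miR-30e-5p (0.45 ± 0.12) were higher on concentrate than on grass, 4 of 15 against 10.7% of all (median 0.15). In Charolais steers 0 of 15 were called between the diets by edgeR or limma-voom and 1 by DESeq2, with 1 at an unadjusted edgeR p under 0.05, and 1 was called in 29 of 32 edgeR fits with 1 library left out. On concentrate 1 of 15, miR-101, was lower in Holstein-Friesian steers. These counts depend on the scale. With upper-quartile factors 2 of 15 were called lower in Holstein-Friesian steers on grass, and with total counts 0 of 15, while 0 of 15 were then called higher on concentrate in that breed. On that scale the median of all miRNAs was 0.20 between the breeds on grass, and 47 miRNAs were called higher and 3 lower, against 47 and 49 with TMM factors. For the diets in Holstein-Friesian steers total counts gave 6 higher and 88 lower, against 34 and 43.

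Of miRNAs induced by inflammatory or growth signalling, all 9 were tested, and 5 of 9 were called higher in Holstein-Friesian than in Charolais steers on grass against 14.8% of all (median 0.68). They were miR-146a (0.95 ± 0.23) and miR-146b (0.73 ± 0.21), which dampen NF-kB signalling, miR-155, miR-222 (0.68 ± 0.17) and miR-31 (1.10 ± 0.33), the last at a mean of only 0.673 CPM. Between the diets in Holstein-Friesian steers 0 of 9 were called by edgeR, DESeq2 and limma-voom, and 0 of 9 had an unadjusted edgeR p under 0.05, with miR-146a at -0.26 ± 0.22 and miR-222 at 0.01 ± 0.16. In Charolais steers 2 of 9, miR-221 (0.60 ± 0.20) and miR-223 (1.24 ± 0.35), were higher on concentrate, against 9.43% of all, and 0 of 9 without high-RFI Charolais concentrate replicate 3 or 1 of 9 without low-RFI Charolais concentrate replicate 5. Blood-cell markers were also called higher in that contrast: 3 of 4 erythrocyte and platelet miRNAs, miR-144 (1.68 ± 0.53), miR-451 (1.76 ± 0.53) and miR-223, and 3 of 7 leukocyte miRNAs, miR-142-3p (0.96 ± 0.27), miR-142-5p (1.06 ± 0.32) and miR-223. miR-142-3p and miR-142-5p are the arms of miR-142, and miR-223 is on both lists. Both counts were 0 without high-RFI Charolais concentrate replicate 3 and with total counts, and the part of these markers in the result was not tested. Between the breeds on concentrate 1 of 9, miR-147 (1.38 ± 0.36, mean 0.735 CPM), was higher in Holstein-Friesian steers, against 1.57% of all called in either direction. It was not called by limma-voom or in 10 of 32 fits with 1 library left out. In the breed by diet contrast edgeR called 0 members of these 3 lists, with 1 of the fibrosis list, 5 of the restraining list and 0 of the inflammatory list at an unadjusted p under 0.05. DESeq2 called 1 of the fibrosis list there and limma-voom 1 of the restraining list. With 1 library left out, edgeR called up to 2 of the restraining list (21 of 64 fits differed from 0) and up to 1 of the fibrosis list (11 of 64).

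**Figure D5:**
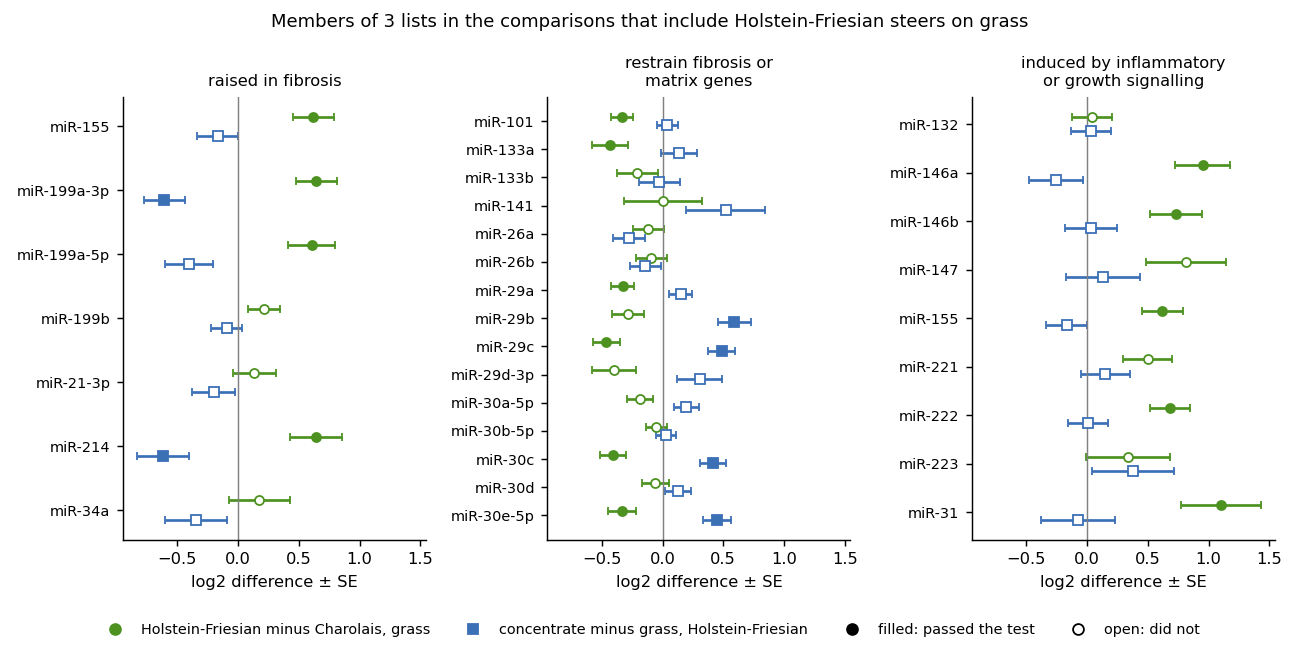
Log2 differences ± SE (horizontal axes) of the tested members of 3 lists (vertical axes) between Holstein-Friesian and Charolais steers on grass (circles, n = 16 libraries each) and between concentrate and grass in Holstein-Friesian steers (squares, n = 16 each). Filled symbols passed the edgeR test at an adjusted p of 0.05: 4, 6 and 5 circles and 2, 4 and 0 squares in the lists raised in fibrosis, restraining fibrosis and induced by inflammation.

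Cell-type marker lists were read in the contrast of the breeds on grass, where 14.8% of all miRNAs were called higher and 15.4% lower in Holstein-Friesian steers on grass. Of 6 smooth muscle and fibroblast miRNAs, 4 were called higher: miR-143 (0.47 ± 0.16), and miR-199a-3p, miR-199a-5p and miR-214, which the fibrosis list holds too. The arms of miR-199a are not separate members here either. The count called higher was 1 of 6 without the libraries apart in miR-143 and 2 of 6 by limma-voom. The summed level of the 6 ran from 14250 to 113600 CPM in Holstein-Friesian steers on grass and from 17080 to 39440 CPM in Charolais steers on grass. Of 7 leukocyte miRNAs, 2 were called higher, miR-146a and miR-155, both also in the inflammatory list. The defining leukocyte miRNA miR-142-5p (0.22 ± 0.31) was not called, and the summed level ran from 380.6 to 1327 CPM against 287.9 to 1376 CPM. Of 2 endothelial miRNAs, miR-126-3p (0.34 ± 0.10) was called higher, with summed levels of 4449 to 8977 CPM against 4730 to 8853 CPM. Of 4 erythrocyte and platelet miRNAs, miR-486 (-0.58 ± 0.13) was called lower and the red-cell miRNAs miR-451 (0.03 ± 0.51) and miR-144 (0.12 ± 0.52) were not called. Their summed levels, made up mostly of miR-486 (mean 104800 CPM, against 6142 for miR-451), ran from 49980 to 118000 CPM against 77600 to 204700 CPM. The sum thus reflects miR-486 and does not stand for the red-cell miRNAs.

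Of 7 muscle fibre miRNAs, 1 was called higher, miR-206 (0.81 ± 0.22), and 1 lower, miR-133a, in Holstein-Friesian steers on grass. These are near the shares of all miRNAs, and with single libraries left out the count called lower ran from 0 to 2 of 7. Their summed level ran from 35570 to 124200 CPM in Holstein-Friesian and from 64980 to 153800 CPM in Charolais steers on grass. Of 5 adipose and liver miRNAs, 3 were called lower, against 15.4% of all: miR-192 (-0.20 ± 0.08), miR-378 (-0.41 ± 0.12) and miR-885 (-0.80 ± 0.21). With 1 library left out that count ran from 2 to 4 of 5, and it differed from 3 in 17 of 32 fits. With total counts only 3 of all 318 miRNAs were called lower in this contrast. miR-378 averaged 18430 CPM, while the liver miRNA miR-122 had a count in only 13 libraries. Whether this list marks adipose or liver cells in this muscle was not tested. Every tested marker of these lists had a count in all 64 libraries, except miR-208a, a heart miRNA of the muscle list, in 63. Between the diets in Holstein-Friesian steers, against 10.7% of all called higher and 13.5% lower on concentrate, 2 of 6 smooth muscle and fibroblast miRNAs were called lower, miR-199a-3p and miR-214. That count was 4 of 6 with total counts and 0 of 6 without the libraries apart in miR-143, and it ran from 1 to 4 of 6 with 1 library left out. Called higher there were 2 of 7 leukocyte miRNAs, miR-150 (0.44 ± 0.16) and miR-342 (0.31 ± 0.08), 1 of 7 muscle miRNAs, miR-1 (0.78 ± 0.13), and 2 of 5 adipose and liver miRNAs, miR-192 (0.24 ± 0.08) and miR-885 (0.60 ± 0.21). The leukocyte count was 1 of 7 in 18 of 32 fits with 1 library left out and 0 of 7 with total counts. The part of any cell type in the level of miR-21-5p was not tested, and fewer or more cells of a type cannot be told apart from less or more of a miRNA per cell.

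The most abundant muscle marker, miR-133a, and the paired smooth muscle miRNAs miR-143 and miR-145 can be set beside miR-21-5p in the 8 low-RFI Holstein-Friesian grass libraries. Replicate 5, at 7342 CPM of miR-21-5p, had 31210 CPM of miR-133a and 34780 CPM of miR-143, while replicate 3, at 6956 CPM, had 64110 and 41690 CPM. Replicates 4 and 2 had 36780 and 35740 CPM of miR-133a and 46060 and 110800 CPM of miR-143. In replicates 7, 6, 8 and 1, miR-133a was at 108800, 98200, 90320 and 68630 CPM and miR-143 at 21490, 37510, 23970 and 26020 CPM. miR-133a was thus lowest in replicates 5, 2 and 4, and miR-143 was highest in replicate 2. miR-145 was at 737.2 CPM in replicate 5, 1232 in replicate 3, 1050 in replicate 4 and 2023 in replicate 2, and at 1714, 1220, 1230 and 714.4 CPM in replicates 7, 6, 8 and 1, so it did not follow the order of miR-21-5p. Over the 16 Holstein-Friesian grass libraries, miR-21-5p had a Pearson r of -0.56 with the summed muscle list and 0.41 with the summed smooth muscle and fibroblast list. Over the other 48 libraries these were -0.14 and -0.03. Each sum is mostly 1 miRNA, miR-133a (r = -0.56 in the 16 libraries) and miR-143 (0.41), and other members ranged from -0.63 for miR-1 to 0.37 for miR-206 in the muscle list, with miR-145 at 0.15. They are descriptions with no p.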

How the data were processed

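miRNA counts were taken from 1 table that the authors deposited, which holds estimated counts, not normalized, of 1030 miRNA names in 64 libraries. RNA came from a Qiagen RNeasy Plus Universal kit and libraries from an Illumina TruSeq stranded kit, per the labels' protocols. The submitters' processing notes name the build ARS-UCD 1.2, edgeR 3.5, R 3.4, cutadapt 2.6 and FastQC 0.11.8, with no role stated. The aligner, the miRNA counter and the small-RNA selection were not given in the sources used here. Fractional values, present in 61 names, were rounded, and 1 name with empty cells was left out. Column names matched the labels' animal numbers, and 0 columns were left without a sample.

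The counts were fitted in R 4.3.3 with edgeR 4.0.16: TMM factors, filterByExpr over 8 groups (318 miRNAs kept), a robust quasi-likelihood fit of 8 group means (56 residual degrees of freedom), and Benjamini-Hochberg adjustment over all 318 at 0.05. Adjusted p-values without another tool's name come from this fit. Intervals on log2 differences are 1.96 SE, and each SE rests on a spread that the 8 groups share. Correlations used log2 CPM with a prior count of 2. Alternatives used DESeq2 1.42.0, limma-voom 3.58.1, other scalings and filters, replicate blocks and left-out libraries.

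Replicates were different steers, numbered within groups. The labels' animal numbers pair 5 steers across diets. Their library pairs had correlations of 0.165, 0.398, 0.599, 0.288 and -0.111 in deviations from group means, and the estimated correlation within an animal was 0.392.

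miR-21-5p and all lists were chosen with earlier results of these data known. Named miRNAs were miR-21-5p and miR-21-3p, the 6 most and 3 least correlated with miR-21-5p, the 5 most correlated within groups, called and abundant list members, and the neighbours in rank. Leaving out the libraries apart in miR-143, dropping the farthest libraries from correlations, and the within-RFI values of contrasts with Holstein-Friesian grass libraries were alternatives chosen after seeing the data.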

Additional observations from a re-analysis of the deposited data

Results flagged for a closer look

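In groups of 8, a library was set apart where its gap to the nearest other library exceeded Dixon's 95% critical share of the group's range. For normally distributed values chance gives this in about 1 of 20 groups. Of 24 checks (3 quantities in 8 groups), 7 met it. The values were not logged and the ratio is made from both arms, so the checks are not independent and that rate is only a rough guide. Low-RFI Charolais grass replicate 2 was apart in miR-21-5p (4141 CPM, next 1666), in miR-21-3p (13.8 CPM, next 9.69) and in the ratio of the arms (299.2, next 209). High-RFI Charolais grass replicate 2 was apart in miR-21-5p (2530 CPM, next 1406). High-RFI Holstein-Friesian grass replicate 1 was apart in miR-21-3p (22.7 CPM, next 9.13). Low-RFI Holstein-Friesian grass replicate 3 was apart in the ratio (796.2, next 487.7), as was high-RFI Holstein-Friesian concentrate replicate 8 (342.9, next 242.2). miR-21-5p itself set no Holstein-Friesian library apart by this measure. The measure looks at the gap of 1 library, and the highest low-RFI Holstein-Friesian grass libraries lay close together, at 7342 and 6956 CPM.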

How the results depend on the processing

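miR-21-5p kept the sign of its 4 described differences in all 12 other settings and in every fit with 1 library left out: between breeds on grass 0.66 to 1.00 and 0.65 to 0.96, between diets in Holstein-Friesian steers -1.16 to -0.64 and -0.87 to -0.69, breed by diet -1.01 to -0.76 and -1.09 to -0.78, and between RFI classes of Holstein-Friesian steers on grass 0.57 to 0.90 and 0.56 to 0.90. Those 4 contain the values that chose miR-21-5p, so the kept signs describe the fits and are not separate evidence. miR-21-5p passed in none of the 5 tested comparisons under any setting, and miR-21-3p passed in 1, between diets in Holstein-Friesian steers with total counts (-0.66). Signs turned for differences near 0, and the cause was not tested. With total counts miR-21-5p gave -0.15 between diets in Charolais steers, 0.040 between RFI classes of Charolais on concentrate and -0.31 between those of Holstein-Friesian on concentrate, and miR-21-3p gave -0.034 between diets in Charolais steers. On that scale the median of all miRNAs was -0.19, 0.094 and -0.37 in these comparisons, in the order named for miR-21-5p. With total counts less the most abundant miRNA, miR-21-5p gave 0.027 between breeds on concentrate, and 0 and -0.12 between RFI classes of Charolais and Holstein-Friesian on concentrate. With upper-quartile factors miR-21-3p gave -0.062 and 0.013 in those RFI comparisons. Within low RFI, miR-21-5p gave -0.10 between diets in Charolais steers and miR-21-3p -0.10 between breeds on grass, the latter chosen after seeing the data. With the animal as a fixed replicate block miR-21-3p gave 0.12 between RFI classes of Holstein-Friesian on grass, and no replicate block changed another sign or call of either arm. Correlations with miR-21-5p turned to 0.028 for miR-365-3p and 0.10 for miR-30c with total counts.

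With 1 library left out, miR-21-5p ran from -0.079 to 0.47 between RFI classes of Charolais on grass and from -0.014 to 0.097 between those of Holstein-Friesian on concentrate. miR-21-3p ran from -0.057 to 0.24 between breeds on grass, from -0.25 to 0.0032 between diets in Holstein-Friesian steers, from -0.45 to 0.17 between RFI classes of Holstein-Friesian on grass and from -0.04 to 0.25 between those of Charolais on concentrate. Over all miRNAs, total counts called 50 between breeds on grass against 96, 42 between diets in Charolais steers (2 higher, 40 lower) against 66 (30 and 36), and 1 in the breed by diet contrast against 11. A mean of 10 CPM or more left 41 called between diets in Charolais steers, and miR-21-3p was below that minimum. Calls between breeds on concentrate were 1 to 6 against 5. Calls between RFI classes of Holstein-Friesian on concentrate were 5 with upper-quartile factors, 3 with total counts less the most abundant miRNA and 2 without the concentrate libraries of steers sampled on both diets, against 0. Breed by diet calls were 7 in the last 2 settings, and 8 to 29 with 1 library left out (29 without low-RFI Holstein-Friesian grass replicate 7). Without high-RFI Charolais concentrate replicate 3, 40 were called between diets in Charolais steers.

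Depth limits miR-21-3p, at 22 to 677 counts a library. Diet cannot be told apart from phase. The SE near 0.23 on RFI differences of miR-21-5p comes from groups of 8 and a spread shared by all 8 groups.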
